A study of Mus musculus with 6 samples.

Results

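The nuclear pore and transport receptor genes were taken as every gene whose symbol names a nucleoporin, an importin, an exportin, a transportin, the mRNA export receptor or a protein of the Ran cycle. By a pattern on gene symbols that used no measured value, 62 of the 12125 genes listed were members, and all 62 were among the 12099 genes tested. RNA was measured in single mouse morulae at embryonic day 2.5 from an outbred background, with 1 library per embryo. Rbpj-/- embryos carry 2 null alleles of Rbpj, the gene of the factor through which the cleaved Notch receptor binds DNA, and 3 were analysed, embryos 1 and 2 from litter 808 and embryo 3 from litter 810. The controls were 1 heterozygote, which still has a single intact allele, and wildtype embryos 2 and 3, all from litter 808. The numbers 808 and 810 stand in the sample titles and are taken here as litters. The paper does not say what they mean, so that the word littermates rests on this reading. The comparison asks which genes depend on Notch signalling at the morula stage.

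Nuclear pores are channels through the nuclear envelope built from many copies of proteins called nucleoporins. A Y-shaped complex and an inner ring form the scaffold, transmembrane nucleoporins anchor it, and further nucleoporins line the channel, face the cytoplasm or form a basket on the nuclear side. Large cargo crosses only when bound to a soluble receptor, an importin on the way in or an exportin on the way out, and the small GTPase Ran sets the direction, since its GTP form releases cargo from importins and loads it onto exportins in the nucleus. In the preimplantation embryo these proteins are supplied first by the oocyte and then by the embryonic genome.

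Values are CPM (read counts scaled to a common library size) after TMM normalisation, which aligns libraries on the bulk of genes, and are listed in the order Rbpj-/- embryos 1, 2 and 3, then the heterozygote and wildtype embryos 2 and 3. Library depth ran from 2962425 and 4330126 reads in Rbpj-/- embryos 1 and 2 to 10064016 in embryo 3 and 12690030 to 14585313 in the controls. The value of 3 reads ranged from 0.201 to 1.09, a limit that covers counting error only. Rbpj was 10.5, 24.3 and 1.32 against 37.04, 111 and 96.9, lower in each Rbpj-/- embryo than in each control, but embryos were genotyped from these reads together with those of Neo, so that this is no independent check. All 8 preimplantation embryo markers looked for were present, and of the cumulus and granulosa markers 0 of 6 were listed. Of 8 oocyte markers 5 were listed, with summed values of 55.9, 53.1 and 37.8 against 34.2, 24.3 and 20.4 (Bmp15 was at 0 in Rbpj-/- embryos 1 and 3, and Gdf9 and Nlrp5 in wildtype embryo 3). Of 4 oviduct markers 3 were listed, and their sums of 13.5 to 130.2 in Rbpj-/- embryos and 30.1 to 124 in controls overlapped. Of 5 blood markers 4 were listed, summing to 28.3 to 5408 and 2.90 to 3935, with 5408 in the embryo of litter 810. Whether RNA of these kinds bears on the results was not tested. Values scaled to library size give the share of a gene in the RNA of an embryo. In whole embryos, fewer cells with that RNA and less of it per cell cannot be told apart.

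Most nuclear pore and transport genes had lower values in the 2 Rbpj-/- morulae of litter 808 than in their control littermates, with 46 and 40 of the 62 below all 3 controls, where 39.8% and 37.2% of all genes were. In the Rbpj-/- embryo of litter 810 this was so for 30 (29.6% of all genes), and over all 6 embryos no member passed the test. The 62 genes together took 0.581% and 0.716% of the reads in Rbpj-/- embryos 1 and 2, 0.929% in embryo 3, and 1.03% to 1.14% in the controls. Their summed values were 6242, 7622 and 8801 against 10334, 10992 and 10086, which is 59.6%, 72.8% and 84.1% of the control mean. In embryos 1 and 2 exportins and importins of the beta family had the lowest sums. The Y complex genes Nup43, Sec13 and Nup37, the GTPase Ran and its partner Ranbp1 were above all 3 controls in these 2 embryos. So were Rae1 and, as listed, Kpna2. In all, 8 members in embryo 1 and 13 in embryo 2 were above all 3 controls, where 33.5% and 31.7% of all genes were. The heatmap of every member shows both directions.

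**Figure D1:**
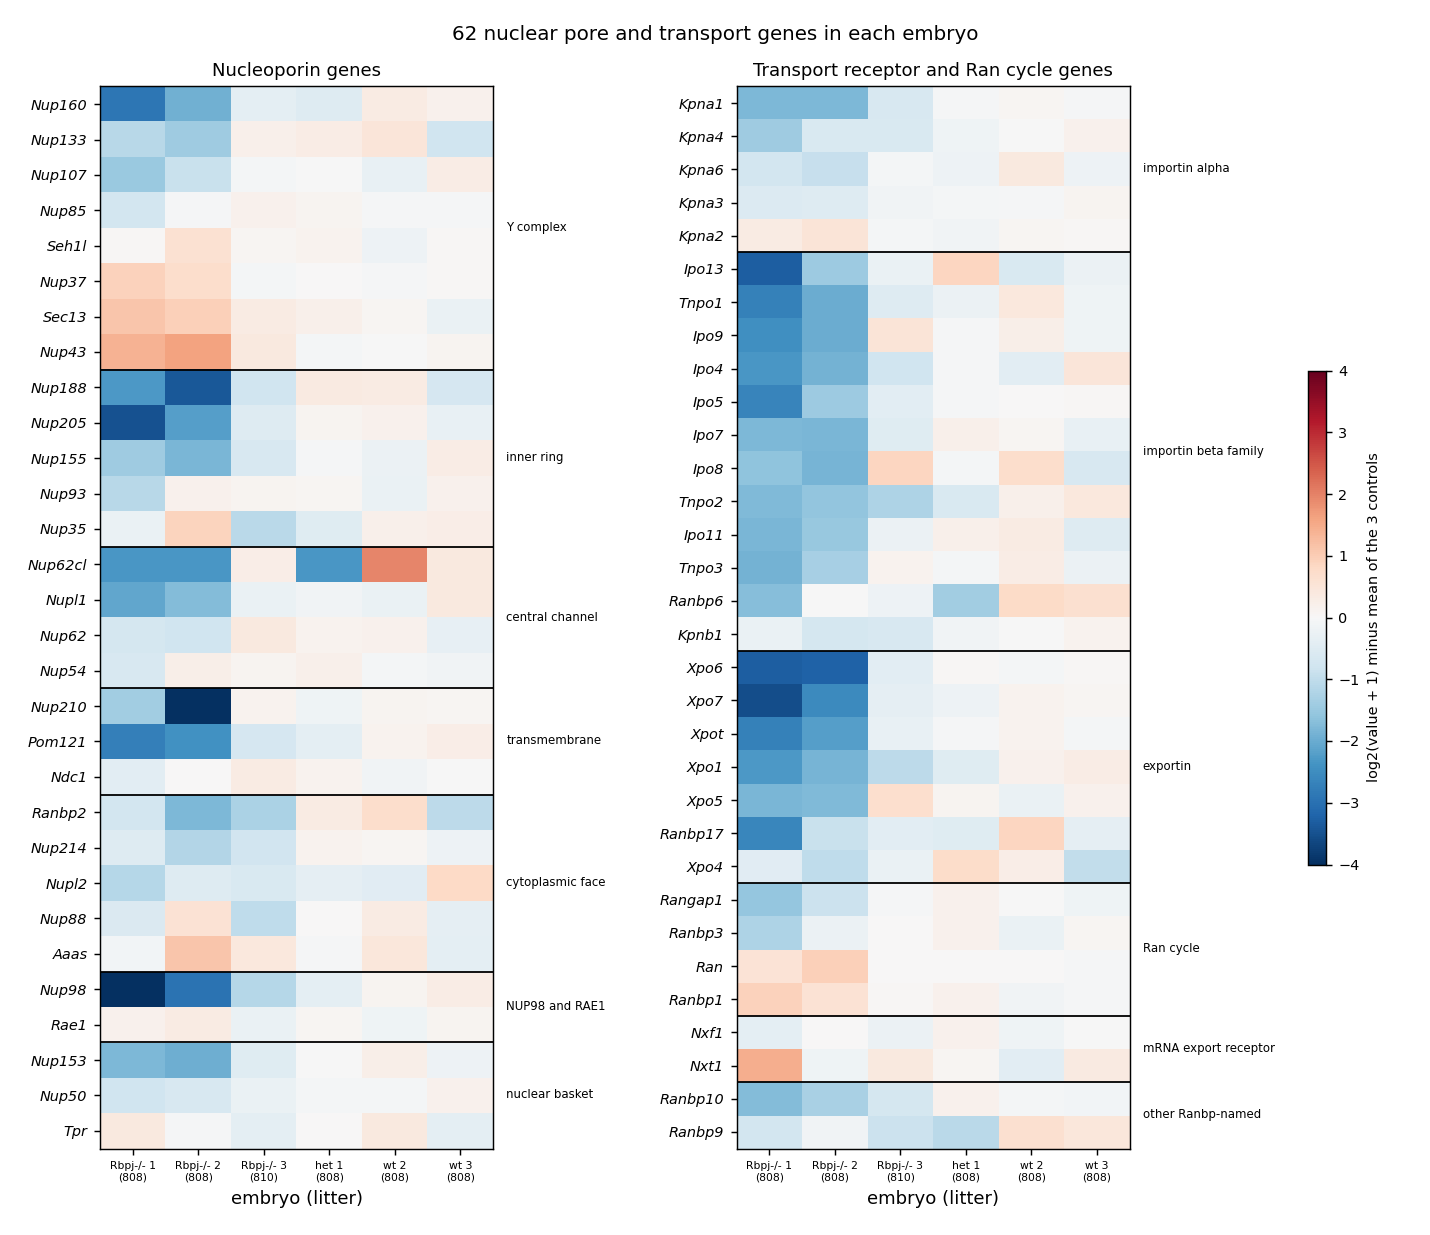
Each row is a member and each column an embryo, with its litter in brackets. Colour gives log2(value + 1) minus the mean of the 3 controls, blue for lower and red for higher. Blue covers most of the importin beta family and exportin rows in Rbpj-/- embryos 1 and 2 and is paler in embryo 3, while Nup43, Sec13, Nup37, Ran and Ranbp1 are red in embryos 1 and 2.

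Differences were tested on log2(value + 1) with limma, with p-values adjusted by Benjamini-Hochberg over all genes tested. Over all 6 embryos, none of the 62 members passed an adjusted p of 0.05 in either direction (0 in each), as was the case for all genes (0% called lower and 0% higher). Before adjustment, limma gave 24 members lower and 2 higher at p under 0.05, beside 11.4% of all genes lower and 5.03% higher. The edgeR quasi-likelihood test on the recovered reads also called 0 members, with 20 lower and 2 higher before adjustment (7.43% and 5.28% of all genes), and DESeq2 called 4 lower (Xpo1, Tnpo2, Ipo4 and Kpna1) and 1 higher (Nup43), beside 1.91% and 1.07% of all genes. With limma's array weights, which count libraries that stand apart for less, 27 members were called lower and 3 higher, beside 9.62% and 3.31% of all genes. The 3 Rbpj-/- embryos lay below all 3 controls for 24 members and above them for 3 (Nup43, Sec13 and Ran), against 12.8% and 8.91% of all genes. With 3 embryos against 3, an exact permutation test of a single gene cannot go below p = 0.1. In this fit the median member was at a log2 fold change of -0.82, where the median of all genes was -0.11, and 52 of the 62 fold changes were below 0.

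The second test used litter as a covariate. Because litter 810 gave a single embryo, it compares Rbpj-/- embryos 1 and 2 with their 3 control littermates, and its p-values rest on 2 mutant embryos of 1 litter. In this littermate comparison 27 members fell and 4 rose, while 31 were not called. Of all genes 11.3% fell and 5.85% rose. Among genes with a mean value of at least 10, 26 of 59 members fell and 4 rose, beside 18.9% and 11.1% of 7812 genes. The median log2 fold change of the members was -1.20, against -0.16 over all genes tested. For the 27 that fell, log2 fold changes ran from -3.93 to -1.20, and their mean value in embryos 1 and 2 had a median of 26.1% of the control mean. With all libraries thinned to the shallowest depth, again 27 members fell and 4 rose, and the median was -1.16. The share of all genes called after thinning is not given. Without the heterozygote the calls went to 18 lower and 1 higher (3.92% and 0.959% of all genes), and without wildtype embryo 2 to 17 lower and 1 higher (3.36% and 0.62%). The count rests most on the variance trend, by which limma lets the expected spread follow the level of a gene: without it 5 members were called lower and 0 higher, beside 2.07% and 0.141% of all genes.

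The members that fell were longer than those that rose. The longest coding transcript of the 27 that fell had 3033 to 15121 bases (median 5360) and that of the 4 that rose 1085 to 2423. Length moved with the fold changes of all genes: across the 11995 genes with an annotated coding length, the Spearman correlation of littermate fold change and length was -0.474, and across the 61 members with a length it was -0.624, as a description of genes that share the same 5 libraries. Members had a median coding length of 4575 bases, against 2865 for all genes. When a loess trend with transcript length was removed from each embryo, 21 members were called lower and 1 higher (Nup43), beside 6.74% and 2.84% of all genes, and the median was -0.80 against -0.19. The step took the correlation of the corrected fold change with length to -0.07 across all genes but only to -0.445 across members. Calls lost by this step were those of Ipo8, Nup133, Nup155, Nup188, Ranbp10 and Tnpo2 among the genes that fell, and of Ran, Ranbp1 and Sec13 among those that rose. The part of length in these differences was not tested beyond this removal.

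Among the longer genes, more of the members fell than of other genes in the same range of length. With members split into 3 sets by length, 2 of the 21 shortest fell and 4 rose, where 6.21% of the 6233 other genes in that range (1085 to 3542 bases) fell and 6.27% rose. In the middle range of 3595 to 5580 bases 13 of 20 fell, which is 65%, beside 20.6% of 2637 other genes. Among the 20 longest, of 5684 to 15121 bases, 12 fell (60%), beside 22.8% of 1551. Median log2 fold changes of the members were 0.25, -1.74 and -1.98 in the 3 ranges, and those of other genes 0.07, -0.77 and -0.84. These shares are descriptions, and no test was made of their difference. The other genes were matched on length and not on level. A mean value of at least 10 was reached by 59 of the 62 members but by 7812 of the 12099 genes tested. Among those 7812 genes of any length 18.9% fell.

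**Figure D2:**
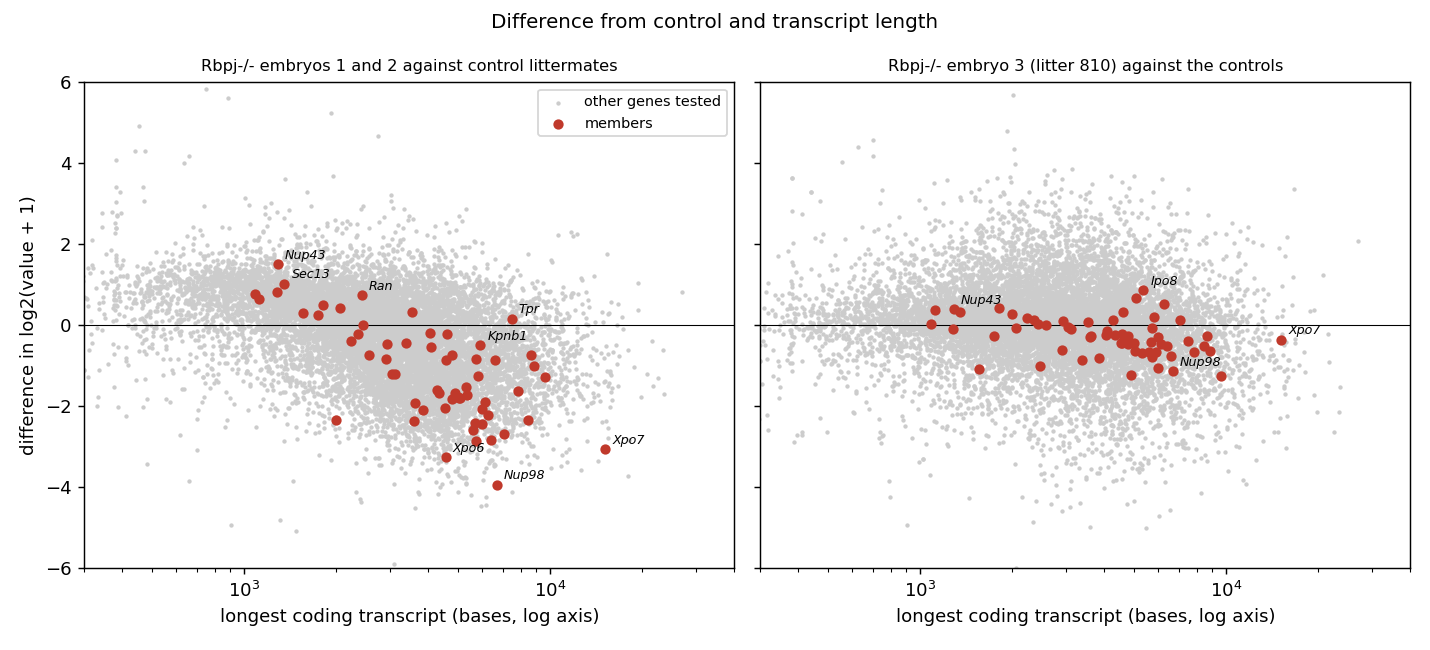
The vertical axes give the difference in log2(value + 1) from the controls and the horizontal axes the longest coding transcript in bases on a log scale, for members (red) and other genes (grey). On the left, Rbpj-/- embryos 1 and 2 against their control littermates, long members such as Nup98 and Xpo7 lie far below 0 and short ones such as Nup43 and Sec13 above it, with Tpr, a long gene, near 0. On the right, the embryo of litter 810 against the controls, members spread around a median of -0.27.

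The promoters of the genes with the largest changes are shown because the study perturbed a DNA-binding factor. They are 200 bases before the annotated start, 5′ to 3′ on the strand of the gene, from RefSeq on GRCm38.p6, for the 2 members that fell most and the 2 that rose most between littermates among the 51 members with a promoter entry. Capitals mark every match of the motifs searched on either strand.
Nup98, chr7:102210167-102210366, minus strand: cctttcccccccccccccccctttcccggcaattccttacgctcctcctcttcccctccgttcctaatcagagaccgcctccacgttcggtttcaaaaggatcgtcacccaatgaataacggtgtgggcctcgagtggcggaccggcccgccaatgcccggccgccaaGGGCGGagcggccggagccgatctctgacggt
Xpo6, chr7:126200502-126200701, minus strand: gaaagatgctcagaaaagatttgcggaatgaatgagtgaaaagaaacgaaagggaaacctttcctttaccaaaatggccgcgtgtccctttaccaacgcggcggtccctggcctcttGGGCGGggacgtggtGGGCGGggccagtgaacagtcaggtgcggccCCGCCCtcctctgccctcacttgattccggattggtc
Sec13, chr6:113740682-113740881, minus strand: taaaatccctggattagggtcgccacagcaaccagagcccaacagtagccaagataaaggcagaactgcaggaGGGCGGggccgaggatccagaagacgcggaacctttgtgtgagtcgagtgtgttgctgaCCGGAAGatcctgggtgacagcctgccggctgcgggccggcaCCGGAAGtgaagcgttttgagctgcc
Ranbp1, chr16:18248695-18248894, minus strand: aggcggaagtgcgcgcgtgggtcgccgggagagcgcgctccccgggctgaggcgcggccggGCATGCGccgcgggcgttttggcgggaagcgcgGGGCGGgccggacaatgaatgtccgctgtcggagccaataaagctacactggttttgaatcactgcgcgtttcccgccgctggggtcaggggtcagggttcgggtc
The capitals in Nup98 and Xpo6 are GC boxes (GGGCGG, or CCGCCC where the match is on the other strand), the element bound by SP1 family factors. Sec13 has 1 GC box and 2 ETS sites (CCGGAAG), and Ranbp1 has a match to the NRF1 core (GCATGCG) followed by 1 GC box. In windows from 250 bases before to 50 after the start, the RBPJ motif GTGGGAA was in 0 of 51 members and in 7.2% of all 27025 genes. GC boxes were in 38 of 51 (74.5%, against 38.2%), ETS sites in 10 (19.6%, against 9.9%) and the NRF1 core in 7 (13.7%, against 4%), namely Nup107, Nup50, Nup62, Nupl1, Ran, Ranbp1 and Xpo5. A gene counts once where any of its annotated starts has a match, and a match is a description of the letters only. The 27025 genes are all those with a promoter entry, whether or not they were tested here. No share over the tested genes is given. Of the 24 that fell and have an entry, 17 held a GC box, and of the 3 that rose all 3 did. ETS sites were in 4 of the 24 and 1 of the 3, and the NRF1 core in 3 of the 24 and 2 of the 3. Nup35, Nup43, Nup85, Seh1l, Kpna1, Kpna3, Kpna6, Xpo4, Xpo7, Ranbp3 and Ranbp10 were not searched.

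In control morulae the levels of the members spanned a wide range. Per kilobase of coding transcript, Ran had the highest listed value, 329, followed by its partner Ranbp1 (280.0), Ipo5 (206) and Sec13 (147). Kpna2 was listed at 142, but its place is not known, since its reads cannot be parted from those of the copy Gm10184, and both together would give 703. At the other end were Ranbp6 (0.639), Nup210 (2.12) and Nup188 (2.72). Between these were the bulk of the pore scaffold and of the receptors, such as Nup85 (93.5), Nup93 (45.3), Xpo1 (45.6) and Kpnb1 (26.0). In Rbpj-/- embryos Ran (482) and Ranbp1 (413) again had the highest listed values, with the same limit for Kpna2.

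The 8 members assigned to the Y complex moved in both directions, so that their sum stayed at 103%, 119% and 106% of the control mean. Genes counted under other roles, Nup98 among them, are not in this sum. Nup160, a long arm subunit, fell between littermates, and so did Nup107 (lost without Rbpj-/- embryo 1 or any 1 of the controls, adjusted p = 0.0745 to 0.122) and Nup133 (lost without Rbpj-/- embryo 1 or 2, the heterozygote or wildtype embryo 2, adjusted p = 0.113 to 0.18), whereas Nup43 and Sec13, small beta-propeller subunits, rose. Nup160 was 19.2, 38.6 and 113 against 105, 189 and 171. Embryos 1 and 2 were below every control and embryo 3 was between the heterozygote and the wildtype embryos. By limma the log2 fold change was -2.42 (SE 0.38, adjusted p = 0.00467) between littermates and -1.75 (SE 0.56, adjusted p = 0.202) over all 6 embryos. For Nup43 the values were 219, 253 and 109 against 77.3, 81.5 and 89.04, so that each Rbpj-/- embryo was above each control. The log2 fold change of Nup43 was 1.502 (SE 0.24, adjusted p = 0.00512) between littermates, 1.14 (SE 0.35, adjusted p = 0.2) over all 6 embryos, and 1.01 (adjusted p = 0.0302) after removal of the length trend, where the alternatives for this gene gave adjusted p-values of 2.75e-09 to 0.0833. Sec13, which is also a subunit of the COPII vesicle coat, was 431, 379 and 249 against 226, 207 and 164, with no overlap of the groups. Its log2 fold change between littermates was 1.03 (SE 0.23, adjusted p = 0.0162), and the call was lost without Rbpj-/- embryo 1 or any 1 of the controls (adjusted p = 0.0542 to 0.0703). Nup37, another propeller, was 101.6, 86.3 and 49.5 against 53.1, 50.8 and 54.3, high in embryos 1 and 2 and below the controls in embryo 3. It was not called. Nup85 and Seh1l, the remaining members assigned to this role, were not called, with values of 124.9 to 236 and 233 to 346 in Rbpj-/- embryos.

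Within a single complex the proportions of transcripts thus differed between embryos. The ratio of Nup43 to Nup160 values was 11.4 and 6.55 in Rbpj-/- embryos 1 and 2, 0.964 in embryo 3 and 0.431 to 0.737 in the controls. The ratio of Sec13 to Nup133 was 6.52 and 7.18 in embryos 1 and 2, and 1.52 in embryo 3, which was inside the 1.04 to 2 of the controls. These pairs join a short and a long transcript (1286 and 5684 bases, 1353 and 5808 bases), so that they also follow the relation with length, and since the 2 genes of a pair differ in length only the difference between embryos can be read from them.

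In the inner ring, 3 of 5 genes fell between littermates and none rose, beside 11.3% and 5.85% of all genes. Nup205, a large solenoid scaffold of the ring, was 19.2, 48.7 and 159 against 244, 257 and 186, lowest in embryo 1, and below each control in each Rbpj-/- embryo. Its log2 fold change was -2.84 (SE 0.38, adjusted p = 0.00244) between littermates and -2.07 (SE 0.60, adjusted p = 0.189) over all 6. The paralogous scaffold Nup188 had few reads, 6, 2 and 86 against 247, 277 and 133. As values it was 2.18, 0.492 and 8.09 against 18.98, 18.7 and 8.91, with no overlap. Nup188 fell by 2.85 on the log2 scale (SE 0.73, adjusted p = 0.0276) between littermates, a call lost without Rbpj-/- embryo 2 or any 1 of the controls (adjusted p = 0.0592 to 0.112). Nup155, which links the ring to the membrane, was 26.5, 19.7 and 45.6 against 70.2, 61.01 and 88.8, again without overlap. It had a log2 fold change of -1.62 (SE 0.35, adjusted p = 0.0153) between littermates, and adjusted p-values of 0.0609 to 0.0701 when any 1 of the controls was left out. Nup93, which holds the ring together, was 60.6, 148 and 142 against 139.7, 110.2 and 148, low only in embryo 1. Nup35 was 80.6, 182 and 45.7 against 69.5, 112 and 118, and cannot be read alone: a transcript of Gm4353, also in the table, is 99.6% identical over 1541 bases, and the 2 genes together had 193, 356 and 181 against 111, 202 and 237.

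The lining of the channel and the membrane anchors gave 1 called gene each. Of the 4 channel genes, Nupl1, which encodes the NUP58 subunit of the NUP62 complex, was 13.4, 17.2 and 49.7 against 54.3, 50.4 and 79.5. Embryo 3 missed the lowest control by a small margin, and embryos 1 and 2 were far below it. Limma gave a log2 fold change of -1.92 (SE 0.38, adjusted p = 0.012) between littermates, a call lost without any 1 of the controls (adjusted p = 0.0535 to 0.0611). Nup62, the central FG-repeat protein of the complex, was 69.7, 65.4 and 150.0 against 126, 128 and 91.5, lower than all controls in embryos 1 and 2 and above them in embryo 3, and was not called (-0.75 (SE 0.27, adjusted p = 0.0902)). Nup54, another partner, was 54.8, 102 and 94.5 against 99.4, 83.0 and 78.99, with overlapping groups. The Nup62-like gene Nup62cl was listed with no read in Rbpj-/- embryos 1 and 2 and in the heterozygote, 54 reads in embryo 3, and 272 and 84 in the wildtype embryos. Its fitted log2 fold change between littermates, -2.33 (SE 1.14, adjusted p = 0.19), depends on the constant added to the values. Among the anchors, Pom121 was 17.1, 21.4 and 75.2 against 90.5, 133 and 143, below each control in each Rbpj-/- embryo. Pom121 had a log2 fold change of -2.59 (SE 0.33, adjusted p = 0.00212) between littermates and -1.95 (SE 0.52, adjusted p = 0.174) over all 6. Its exons share 665 bases with those of Nsun5 on the opposite strand, where the reads of the 2 genes cannot be told apart, and Nsun5 itself was 141, 119 and 125 against 132, 81.6 and 118. Nup210 had 14, 0 and 175 reads in the Rbpj-/- embryos and 169 to 240 in the controls, at a log2 fold change of -2.69 (SE 0.83, adjusted p = 0.0539) between littermates. Ndc1, the anchor conserved from yeast to mammals, was 88.6, 119 and 148 against 130.3, 108 and 118, with overlapping groups and a log2 fold change of -0.204 (SE 0.26, adjusted p = 0.637) between littermates.

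Nup98, an FG-repeat nucleoporin found on both faces of the pore that also acts in gene regulation, had the lowest fitted fold change of the members between littermates. Its values were 0.726, 5.65 and 22.7 against 38.7, 54.3 and 62.04, which in reads is 2, 23 and 241 against 504, 805 and 926. Each Rbpj-/- embryo was below each control, and embryo 3, at 43.9% of the control mean, was nearer to the controls than its 2 counterparts. The log2 fold change was -3.93 (SE 0.65, adjusted p = 0.00558) between littermates and -2.997 (SE 0.83, adjusted p = 0.18) over all 6 embryos, and the littermate call held with any 1 embryo left out (adjusted p up to 0.0445). With 2 reads in embryo 1, which is under the floor of 3, the size of the fall is poorly fixed, and its rank with it: without embryo 1 the fold change of Nup188 was lower, and with a pseudocount of 5 that of Xpo6. Rae1, the mRNA export factor that binds NUP98, was 131, 148 and 96.9 against 123, 103 and 126. The groups of Rae1 overlapped, and its log2 fold change between littermates was 0.25 (SE 0.25, adjusted p = 0.534).

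On the cytoplasmic face none of 5 genes was called (0 fell and 0 rose by limma between littermates, with 2 lower at an unadjusted p under 0.05 over all 6 embryos). Ranbp2, the large filament protein with SUMO ligase activity, was 78.04, 36.6 and 54.5 against 166, 215 and 62.8. Wildtype embryo 3 lay among the Rbpj-/- embryos, and the log2 fold change was -1.28 (SE 0.52, adjusted p = 0.121) between littermates and -1.27 (SE 0.48, adjusted p = 0.241) over all 6. Nup214, the filament protein that binds XPO1, was 58.8, 36.4 and 49.1 against 91.9, 88.7 and 73.1. Its groups did not overlap, at a log2 fold change of -0.82 (SE 0.34, adjusted p = 0.276) over all 6. Nup88, the partner of NUP214, was 98.0, 219 and 72.8 against 149, 186 and 114, without a shared direction. Aaas, which encodes ALADIN, was 99.5, 229 and 143 against 102, 145 and 81.2, highest in embryo 2 (0.504 (SE 0.38, adjusted p = 0.404) between littermates), and Nupl2 was 5.44, 8.85 and 8.19 against 9.99, 9.37 and 23.4.

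Of the nuclear basket genes, Nup153 fell, while Nup50 and Tpr were not called. Nup153, which docks the basket to the nuclear ring, was 35.2, 31.5 and 90.2 against 123, 147 and 109, with no overlap. Limma put the log2 fold change at -1.88 (SE 0.28, adjusted p = 0.00397) between littermates and -1.41 (SE 0.42, adjusted p = 0.19) over all 6. Nup50, a cofactor in the release of importin alpha, was 46.1, 51.6 and 67.9 against 76.8, 76.5 and 92.8, each Rbpj-/- embryo below each control by a margin too small for a call (-0.73 (SE 0.29, adjusted p = 0.113)). Tpr, the long coiled coil that forms the basket, was 336, 251 and 197 against 261, 339 and 196. The groups of Tpr overlapped fully, with a log2 fold change of 0.16 (SE 0.27, adjusted p = 0.725) between littermates, although its coding transcript of 7480 bases is longer than those of most members that fell.

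The plots of 12 members by embryo set the genes that fell beside those that did not.

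**Figure D3:**
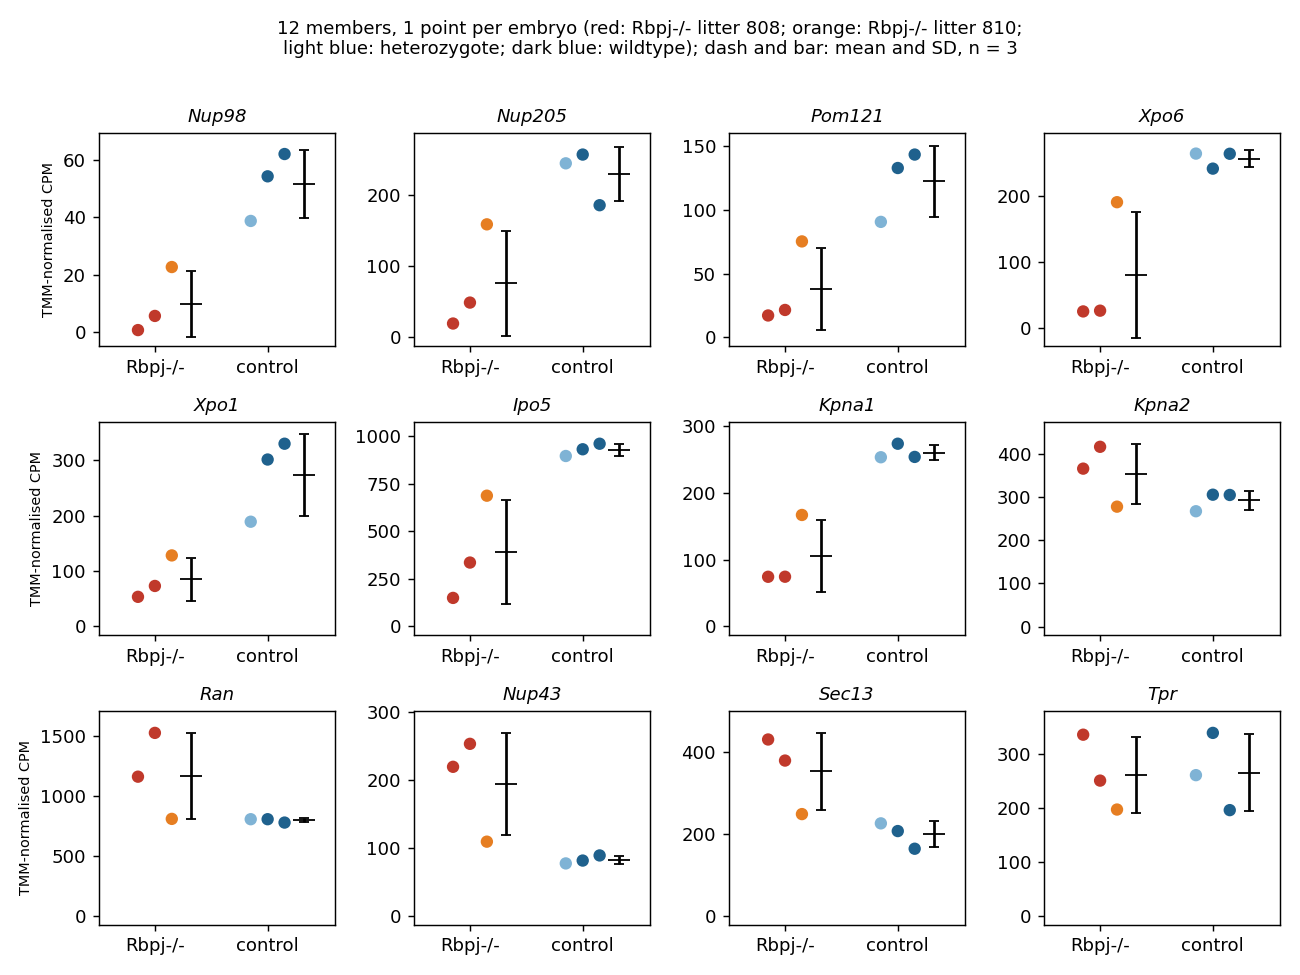
Each panel gives the TMM-normalised CPM of 1 gene in each embryo, with colour for genotype and litter and a dash with a bar for the mean and SD of 3 embryos. For Nup98, Pom121, Xpo1 and Kpna1 the red and orange points lie below all blue points, for Nup43 and Sec13 above them, and for Tpr they mix. The litter 810 embryo (orange) is nearer to the controls than the red points in most panels.

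The importin alpha genes encode the adaptors that read classical nuclear localisation signals, and 1 of 5 fell between littermates (11.3% of all genes). Kpna1 was 74.4, 74.5 and 167 against 254, 274 and 254. Each Rbpj-/- embryo was below the controls, which varied little among themselves. For Kpna1 the log2 fold change was -1.79 (SE 0.22, adjusted p = 0.00212) between littermates and -1.41 (SE 0.35, adjusted p = 0.174) over all 6. Kpna4 was 25.8, 45.7 and 45.3 against 62.9, 70.1 and 78.9, without overlap but not called (-1.01 (SE 0.36, adjusted p = 0.0803) between littermates). Kpna3 was 64.2, 64.9 and 85.4 against 89.6, 90.7 and 101.7, also without overlap, and Kpna6 was 28.7, 24.6 and 45.3 against 41.7, 62.8 and 41.9, low in embryos 1 and 2 (-0.83 (SE 0.37, adjusted p = 0.158) between littermates). Kpna2 was listed at 366, 416 and 278 against 267, 305 and 305, above the controls in embryos 1 and 2 only. Its reads cannot be parted from those of Gm10184, whose transcript is 99.9% identical over 1966 bases, and together the 2 genes had 1451, 1630 and 1250 against 1345, 1487 and 1498, with overlapping groups.

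The importin beta family carries cargo through the pore, and 9 of its 12 members fell between littermates (11.3% of all genes). Their summed value was 23.6%, 32.8% and 75.4% of the control mean, and the controls themselves ran from 95.8% to 107%. Ipo5, the most abundant, which imports ribosomal proteins and histones, was 149.5, 335 and 687 against 895, 931 and 959.8. The Rbpj-/- values of Ipo5 lay below a narrow control range, at 26.1% of its mean in embryos 1 and 2 and 73.9% in embryo 3. Ipo4, an importer of histones, was 60.6, 82.4 and 176 against 297, 227 and 428, also without overlap. For Ipo4 the log2 fold change was -2.102 (SE 0.30, adjusted p = 0.00333) between littermates and -1.67 (SE 0.41, adjusted p = 0.174) over all 6. Ipo7 was 109, 107 and 275 against 436, 407 and 314, with embryos 1 and 2 nearly alike. Limma gave -1.81 (SE 0.23, adjusted p = 0.00212) as log2 fold change between littermates and -1.37 (SE 0.38, adjusted p = 0.179) over all 6.

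The transportins fell with the importins. Tnpo2 was 35.6, 41.1 and 52.7 against 80.6, 142 and 167, with embryo 3 nearly as low as embryos 1 and 2. Of the family it had the smallest p over all 6 embryos. The log2 fold change of Tnpo2 was -1.52 (SE 0.37, adjusted p = 0.174) over all 6 and -1.68 (SE 0.36, adjusted p = 0.015) between littermates, a call lost without Rbpj-/- embryo 1 or either wildtype embryo (adjusted p = 0.0665 to 0.0786). Tnpo1, which imports hnRNP proteins, was 64.2, 105 and 295 against 357, 559.5 and 372, and Tnpo3, the importer of SR splicing factors, 53.4, 79.2 and 221 against 189, 247 and 172. Embryo 3 was thus below the controls for Tnpo1 and among them for Tnpo3. Ipo9, Ipo8 and Ipo11 fell between littermates as well, yet for Ipo9 (13.1, 18.4 and 109.6 against 73.3, 89.3 and 67.1) and Ipo8 (15.2, 12.5 and 88.8 against 45.8, 79.8 and 30.4) embryo 3 was above every control. The call of Ipo8 was lost without Rbpj-/- embryo 1 or 2, the heterozygote or wildtype embryo 2 (adjusted p = 0.0791 to 0.133), and that of Ipo11 without either of these controls (adjusted p = 0.0534 to 0.0556). The founding receptor Kpnb1, which carries importin alpha, was not called. Kpnb1 was 126, 92.7 and 97.04 against 139.7, 151 and 169.9, each Rbpj-/- embryo below each control, at 71.3% of the control mean in embryos 1 and 2. Ipo13 (2, 21 and 137 reads against 382, 150 and 197) and Ranbp6 (0, 9 and 19 reads against 3, 67 and 60) had few reads and were not called.

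Exportins were the role with the lowest sums in Rbpj-/- embryos 1 and 2, at 17.5% and 22.1% of the control mean. Between littermates 5 of 7 exportins fell (11.3% of all genes). In embryo 3 their sum was 77.3%, above those of 6 other roles. Xpo1 (CRM1), which exports proteins with leucine-rich signals as well as several kinds of RNA, was 53.4, 73.02 and 128 against 189, 301 and 330.0. All 3 Rbpj-/- embryos were below all controls. Its log2 fold change was -2.07 (SE 0.30, adjusted p = 0.00349) between littermates and -1.73 (SE 0.38, adjusted p = 0.17) over all 6. Xpo6, the exporter of actin, was 25.4, 26.6 and 191 against 265, 242 and 265. The mean of embryos 1 and 2 was 10.1% of the control mean and embryo 3 was at 74.3%. For Xpo6 the log2 fold change was -3.26 (SE 0.24, adjusted p = 0.000506) between littermates and -2.31 (SE 0.64, adjusted p = 0.179) over all 6.

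The tRNA exporter Xpot was 74.8, 107 and 403 against 473, 543 and 464, with no overlap of the groups. Its log2 fold change was -2.45 (SE 0.23, adjusted p = 0.000731) between littermates and -1.73 (SE 0.51, adjusted p = 0.189) over all 6, and the calls of Xpo1, Xpo6 and Xpot held with any 1 embryo left out. Xpo7, with the longest transcript among the members (15121 bases), was 12.3, 25.8 and 122 against 135, 171 and 166. Xpo5, which exports microRNA precursors, was 24.7, 25.8 and 145 against 97.1, 74.9 and 101.4. It fell between littermates, but in embryo 3 it was above every control. Xpo4 (46.1, 31.0 and 52.1 against 105, 76.5 and 31.2) and Ranbp17 (3.63, 14.3 and 20.05 against 19.2, 50.2 and 21.3), a relative of Xpo7, were not called.

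**Figure D4:**
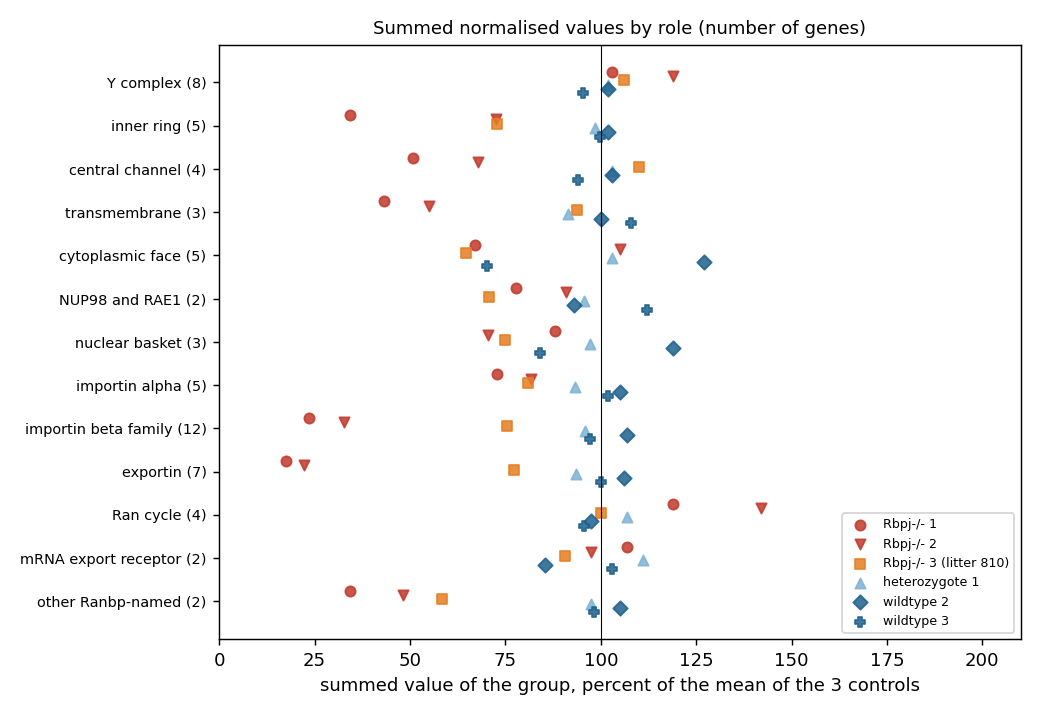
Each row is a role with its number of genes, and each point the summed value of those genes in 1 embryo as a percent of the mean of the 3 controls. Exportins (17.5% and 22.1%) and the importin beta family (23.6% and 32.8%) are lowest in Rbpj-/- embryos 1 and 2, and the Ran cycle genes (119% and 142%) are above the controls there.

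Of the 4 genes of the Ran cycle, 2 rose and 1 fell between littermates, beside 5.85% and 11.3% of all genes. Ran itself, the GTPase, was 1163, 1530.1 and 809.7 against 807, 807 and 779. Embryos 1 and 2 stood clearly above a tight control range, and embryo 3 was above it by a small margin. The log2 fold change of Ran was 0.74 (SE 0.19, adjusted p = 0.0291) between littermates and 0.502 (SE 0.28, adjusted p = 0.385) over all 6, with the first lost without Rbpj-/- embryo 2 or any 1 of the controls (adjusted p = 0.0633 to 0.106). Ranbp1, which helps to release RanGTP from receptors, was 580.0, 455 and 310.3 against 344, 275 and 293. It rose between littermates (0.76 (SE 0.22, adjusted p = 0.0389)), while embryo 3 was inside the control range. Without Rbpj-/- embryo 1 or any 1 of the controls this call was lost (adjusted p = 0.0862 to 0.145), and after removal of the length trend its fold change was -0.02. Rangap1, the activator that turns RanGTP to RanGDP at the cytoplasmic face, moved the other way, at 135, 219 and 386 against 447, 394 and 353. Rangap1 had a log2 fold change of -1.201 (SE 0.25, adjusted p = 0.0145) between littermates, lost without Rbpj-/- embryo 1 or any 1 of the controls (adjusted p = 0.0531 to 0.0728). Embryo 3 had Rangap1 within the control range. The ratio of Ran to Rangap1 was 8.62 and 7 in embryos 1 and 2, 2.1 in embryo 3 and 1.8 to 2.21 in the controls. Ranbp3, a cofactor of XPO1, was 49.0, 97.6 and 116.6 against 130.2, 97.2 and 123, and was not called.

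The receptor for bulk mRNA export, the NXF1 and NXT1 pair, gave 0 called genes by limma between littermates. Nxf1 was 121, 161 and 135 against 182, 141 and 159.9 and Nxt1 83.5, 26.1 and 38.8 against 31.05, 21.98 and 37.9, with overlapping groups for both. Log2 fold changes between littermates were -0.198 (SE 0.25, adjusted p = 0.635) and 0.64 (SE 0.52, adjusted p = 0.431). At an unadjusted p under 0.05 neither gene passed over all 6 embryos. Ranbp9 and Ranbp10, named for Ran binding but known as parts of a ubiquitin ligase complex, are no transport receptors. Ranbp10 was 36.7, 49.7 and 76.6 against 141, 119 and 115, below the controls in each Rbpj-/- embryo. It had a log2 fold change of -1.52 (SE 0.29, adjusted p = 0.00934) between littermates, lost without the heterozygote or wildtype embryo 2 (adjusted p = 0.0544 to 0.0573), and Ranbp9 was 17.8, 27.3 and 16.4 against 13.8, 47.8 and 41.5, overlapping (-0.44 (SE 0.58, adjusted p = 0.652) between littermates).

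Some members share sequence with other genes, and the kit keeps no strand. Ran has a pseudogene, Gm13461, whose transcript is 97.3% identical over 644 bases, and the sum of both was 1173, 1530 and 863 against 854, 852 and 824, still without overlap. Xpot has the copy Gm7389 (95.6% over 2790 bases), which added 0.726 to 12.5 in any embryo. Called members also match genes that were not listed. Ipo4 matches Gm49378 (100% over 2310 bases), Nupl1 Gm49336 (100% over 1759) and Tnpo1 the pseudogene Gm6493 (97.2% over 2582). How reads from such stretches were assigned is not known, which limits the values of these members. Exons of Ipo11, Nup214, Nup88, Pom121, Ranbp1, Ranbp17, Ranbp9, Rangap1, Tnpo3 and Tpr overlap those of a gene in the table on the opposite strand, by 48 bases (Nup88) to 665 (Pom121).

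Set side by side, 10 of 30 nucleoporin genes fell and 2 rose between littermates, and 14 of 19 genes of the importin beta family and exportins fell and none rose, beside 11.3% and 5.85% of all genes. The median log2 fold changes were -0.78 and -1.81. The median coding lengths of the groups were 3602 and 5001 bases, and after removal of the length trend 7 of the nucleoporins were called lower and 1 higher, against 12 lower and 0 higher among the receptors, beside 6.74% and 2.84% of all genes. Summed values were 74.8%, 92.4% and 88% of the control mean for nucleoporins and 21.6%, 29.4% and 76% for the receptors. The difference between the groups was not tested, since members were chosen by name and not as replicates of a condition.

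The Rbpj-/- embryo of litter 810 followed its counterparts in part. Against the range of the controls, 30 of the 62 members were below it in this embryo, 21 inside and 11 above, where 29.6% of all genes were below and 29.1% above. No member of embryo 3 was under 25% of the control mean, where 18 and 15 were in embryos 1 and 2 (9.76% of all genes in embryo 3, and 18.9% and 19.1% in embryos 1 and 2). Its median log2 difference from the control mean was -0.27 over members and 0.02 over all genes. Of the 27 genes that fell between littermates, embryo 3 was below the controls for 18, inside their range for 6 and above it for 3 (Xpo5, Ipo9 and Ipo8), with a median of 73.2% of the control mean. These 27 were called against the same 3 controls, a choice that itself favours a low position of embryo 3. The share over all genes called lower is not given, and the count is a description only. Litter and genotype cannot be told apart for it, and it was sequenced more deeply than its 2 counterparts. Across the 61 members with a length, the Spearman correlation of its difference with length was -0.412, against -0.158 across all genes.

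Other genes of nuclear transport, which the symbol pattern leaves out, moved in both directions. Of 39 such genes listed for this purpose, 32 were in the table and tested. Between littermates 5 fell (Cse1l, the exportin of importin alpha, Ahctf1, the ELYS protein that starts pore assembly on chromatin, Ncbp1 of the cap-binding complex, Nxf2 and Senp2) and 7 rose (Alyref, Ddx39, Eny2, Ncbp2, Sarnp, Thoc3 and Thoc7, most of them mRNA export adaptors), beside 11.3% and 5.85% of all genes. Their median log2 fold change was -0.06 between littermates and 0.13 over all 6, beside -0.16 and -0.11 for all genes, and their summed values were 113%, 119% and 96.9% of the control mean. Cse1l was 62.1, 103.5 and 187 against 198, 250.1 and 198, lower in each Rbpj-/- embryo than in each control. Ahctf1 was 41.4, 50.6 and 96.8 against 155, 139.8 and 98.8, with no overlap of the groups.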

How the data were processed

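Single E2.5 morulae were profiled with a SMART-Seq kit for ultra-low RNA input and single-end reads. The deposited signal values are TMM-normalised CPM: the authors counted reads per gene with RSEM against the GRCm38 transcriptome (Ensembl 76 annotation) and scaled the counts with edgeR. The submitters' processing notes list CASAVA 1.8.2, cutadapt 1.3 and RSEM 1.2.3, whereas the paper's methods name another RSEM release. How the 12125 genes were selected was not stated.

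In each column 100% of values lay within 0.01 of a whole multiple of 1 read, so depth was recovered (2962425 to 14585313 reads). PCR copies are not independent molecules. Genes above a value of 1 in 3 or more embryos (12099) were tested as log2(value + 1), a scale that understates the change of low genes, with limma 3.58.1 (R 4.3.3; variance trend, two-sided, Benjamini-Hochberg, threshold 0.05), by genotype alone or with litter. Alternatives on the recovered reads were edgeR 4.0.16 (quasi-likelihood) and DESeq2 1.42.0. Further alternatives were no filter or a mean of at least 10, pseudocounts of 0.1 and 5, no variance trend, array weights, median of ratios and quantile scaling, subtraction of a loess fit (span 0.5) on transcript length, thinning (5 draws), and leaving out the heterozygote or each embryo. Subtraction of a fit on coding length was added after the data were seen. Embryos are the replicates. The steps were tested on simulated data.

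Members, roles and lists were chosen with earlier results of these data known. Full statistics were given for Nup98 and up to 3 members of each role with the smallest p over all 6 embryos. Other members were given by value. Transcripts came from GENCODE M21 (61 of 62 members matched by ID) and promoters from RefSeq.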

Additional observations from a re-analysis of the deposited data

How the results depend on the processing

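Over all 6 embryos, array weights called 27 members lower and 3 higher (9.62% and 3.31% of all genes), and DESeq2 4 and 1 (1.91% and 1.07%). Leaving out single embryos called 0 to 27 and 0 to 4, beside 0% to 11.2% and 0% to 5.96% of all genes. The highest were without the embryo of litter 810. Between littermates, no variance trend left 5 lower and 0 higher (2.07% and 0.141% of all genes). Quantile normalisation left 2 higher (5.5% of all genes). Without the length trend, and without the coding length trend, 1 was higher (2.84% and 2.32% of all genes), as without the heterozygote (0.959%). With coding length the median was -0.76. Leaving out single embryos gave 17 to 29 lower and 1 to 4 higher, beside 3.36% to 13.2% and 0.62% to 6.48% of all genes.

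Of 1432 values of the 36 members chosen for full statistics under the alternatives, 1261 kept their direction and side of the threshold, 75 lost the call, 53 gained it and 43 changed sign. All 75 losses were among the 419 littermate values of the 21 of these members called between littermates. Of the 419, 342 were unchanged and 2 changed sign. Of the 31 members called between littermates, 18 were called with any 1 embryo left out and 26 lost the call without the variance trend. Of these 31, only Ranbp1 changed sign under the alternatives fitted to all of them, which leave out thinning (-0.0165 and -0.0386 between littermates, and -0.0422 and -0.0636 over all 6, without either length trend). The sign changes of uncalled members over all 6 embryos were as follows. Nxt1 went to -0.00104 and -0.020, Nxf1 to 0.028 and 0.104, Rae1 to -0.30 and -0.29, Tpr to 0.49 and 0.51 and Ndc1 to 0.30 and 0.36 without the length and coding length trends. With median of ratios Tpr was 0.036 and Ndc1 0.028, with DESeq2 0.044 and 0.053, with thinning 0.036 and 0.030, and Ndc1 was 0.039 with quantile normalisation, 0.000647 with edgeR and 0.040 without the heterozygote. Between littermates the 2 length corrections gave Nxt1 -0.13 and -0.14, Nxf1 0.15 and 0.24, Rae1 -0.24 and -0.22, and Ndc1 0.24 and 0.31. Leaving out single embryos gave Tpr -0.22 to 0.17, Rae1 -0.0521 to 0.249, Ndc1 -0.20 to 0.16 over all 6 embryos, and Aaas -0.10 to 1.10, Nxt1 -0.18 to 1.47, Nxf1 -0.399 to 0.00296, Tpr -0.0459 to 0.375, Ndc1 -0.415 to 0.00709 between littermates. The cause of these shifts was not tested.

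No paired analysis was possible because replicate numbers follow the order of deposit and pair no embryos. Limits: 2 mutants and 3 controls of 1 litter carry the littermate calls, the 2 mutants are the shallowest libraries, litter 810 holds no control, and at the depth of embryo 1 a gene with 3 reads has a value of 1.09, so that falls of Nup98, Nup188, Ipo13, Nup210 and Nup62cl cannot be sized well.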
